A study of Mus musculus with 8 samples.

Results

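The effect of losing hepatocyte ATF4 on the neonatal liver transcriptome was measured over both treatments of the experiment, with all 4 *hUGT1/Atf4ΔHep* libraries set against all 4 *hUGT1/Atf4F/F* libraries. Every gene that passed a filter on low counts was a member, 13633 of the 24411 genes in the count table, and 8 of 8 libraries were used. Mice of each genotype received vehicle or triclosan (TCS), an antimicrobial agent, by oral gavage at 50 mg/kg on 4 consecutive days, which gave 4 groups of 2 libraries (n = 2 each). Liver RNA of 2 mice was pooled for a library, so each group held 4 mice. All mice were C57BL/6 neonates that carried the human *UGT1* locus as a transgene on a *Ugt1*-null background (*hUGT1*) and a floxed *Atf4* gene. *hUGT1/Atf4ΔHep* mice also carried *Alb-Cre*, a recombinase driven by the albumin promoter, which removes the floxed part in hepatocytes and leaves the other cells of the liver with an intact gene. Loss of ATF4, the altered *Atf4* locus and *Alb-Cre* came together in these mice, so their effects cannot be told apart here. The study's methods place the first dose at 10 days of age but give 14 days for the RNA-sequencing mice. Its legend to the RNA-seq heatmaps has dosing begin at 10 days and livers taken after 4 days. By that legend 14 days would be the age at collection, though the methods do not say so. Genes are compared in CPM, counts scaled to a common library total after TMM normalization, and a log2 fold change is the *hUGT1/Atf4ΔHep* minus the *hUGT1/Atf4F/F* level with treatment held as a block. Genotypes are shortened to F/F and ΔHep where all 4 libraries of each are listed, the vehicle pair before the TCS pair and replicate 1 before replicate 2. A gene was called when its adjusted p fell under 0.05, and called genes alone are said to have risen or fallen.

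ATF4 is a basic leucine zipper (bZIP) transcription factor whose translation increases when a kinase of the integrated stress response (ISR) phosphorylates eIF2α. It binds DNA as a dimer with C/EBP family members at a composite site and activates genes for amino acid synthesis and uptake, for aminoacyl-tRNA synthetases, and for stress factors such as *Trib3* and *Fgf21*. A second group of genes described here are targets of p53, the factor that halts the cell cycle or starts cell death after DNA damage.

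Promoters of known ATF4 targets are shown first, only for genes whose window carries the site. The composite site was searched as TGATGNAA on both strands, in windows of 250 bases before to 50 bases after each start site (RefSeq, build GRCm38.p6). The *Asns* window, shown here from chr6:7693210-7693459 on the minus strand up to the start site, holds 1 match, written in capitals.
Asns: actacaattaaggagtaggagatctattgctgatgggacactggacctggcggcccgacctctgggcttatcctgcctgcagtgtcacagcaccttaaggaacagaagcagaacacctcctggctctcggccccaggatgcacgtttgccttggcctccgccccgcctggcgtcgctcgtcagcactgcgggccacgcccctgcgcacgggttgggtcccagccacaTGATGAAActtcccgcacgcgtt
The same letters occur in the windows of 7 further genes from the ATF4-related lists whose unadjusted p was under 0.05 with lower values in ΔHep libraries. For these, 30 bases around the match are given, read on the strand on which the capitals spell the site.
Trib3 (chr2:152344028-152344057): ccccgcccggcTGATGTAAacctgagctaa
Fgf21 (chr7:45615611-45615640): gcctggacggaTGATGCAAtgggggggtct
Nupr1 (chr7:126625562-126625591): caagccctgtcTGATGCAAtctggcccttt
Jdp2 (chr12:85599372-85599401): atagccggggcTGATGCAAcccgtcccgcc
Iars (chr13:49682126-49682155): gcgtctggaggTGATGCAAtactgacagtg
Yars (chr4:129189895-129189924): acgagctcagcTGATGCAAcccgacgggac
Gars (chr6:55037960-55037989): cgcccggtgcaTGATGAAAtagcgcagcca
The match in *Asns* begins 23 bases before the start site, and that in *Fgf21* 139 bases before it. In *Yars* and *Trib3* it begins 3 and 14 bases after the start. Of the tested genes, 10879 had a window, and 2.82% of them held a match. Among the 14 members of the 3 lists (amino acid synthesis, tRNA synthetases, ISR factors) with a window and an unadjusted p under 0.05 on the lower side, 8 held one, as did 7 of the 31 remaining members with a window. No match was held by *Atf5*, the called member, or by *Mars*, *Psat1*, *Phgdh*, *Aldh18a1* and *Mthfd1l*. *Cars*, *Lars*, *Nars*, *Eif4ebp1*, *Klhl24* and *Ppp1r15b*, also on the lower side, had no window and were not searched. None of the 13 p53 targets with a window held one, which so few windows cannot tell from the 2.82% over all genes. A match is a description of sequence and no evidence of binding.

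*Atf4* itself (chr15:80255184-80257541, plus strand, GENCODE M21 on GRCm38), which checks the labels, fell in every *hUGT1/Atf4ΔHep* library. *Atf4* was at 59.5 and 62.8 CPM under vehicle and 58.6 and 59.8 CPM under TCS in *hUGT1/Atf4F/F* libraries, against 18.5 and 19.7 CPM and 17.5 and 17.4 CPM in *hUGT1/Atf4ΔHep* libraries (log2 fold change −1.72, SE 0.051, adjusted p = 2.01e-07). The lowest F/F library stood at 58.6 CPM and the highest ΔHep library at 19.7 CPM, a 3.30-fold difference of the fitted means. Under each treatment alone the log2 fold change was −1.68 under vehicle and −1.76 under TCS, and the difference between these effects was −0.09 (95% interval −0.33 to 0.15). The RNA that remained was counted over the whole gene, so the deleted part was not seen apart from the rest. In bulk liver, fewer cells of a type and less RNA per cell cannot be told apart.

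The tissue matched its label. The 10 hepatocyte markers, *Alb* and *Hnf4a* among them, had a median log2 fold change of −0.00, and their summed level was 132738 to 161816 CPM in F/F and 136022 to 159041 CPM in ΔHep libraries. Libraries held 11624143 to 25573210 counts. TCS replicate 2 of *hUGT1/Atf4F/F* stood apart by genes of keratinized epithelium and of muscle, chosen after their values were seen: *Krt13* was at 246 CPM there against at most 2.26 CPM elsewhere, and *Myh8* at 128 CPM against at most 15.3 CPM. Without this library 5 genes were called, all among the 6 called with it and *Atf5* no longer. Without TCS replicate 1 of the same group, which leaves that library alone in its group, 31 were called, 27 of them lower, *Krt13*, *Krt4* and *Lor* among them and all 6 included. Its part in the other results was not tested beyond these fits. The pools also differed in sex. *Xist*, the RNA that silences 1 X chromosome in female cells, stood at 718 to 778 CPM in both TCS libraries of F/F, in vehicle replicate 1 and TCS replicate 2 of ΔHep, and at 0.346 to 23.2 CPM in the other 4, and Y-linked genes were at 41.2 to 51.8% of the highest library in the former. Each genotype thus had 2 libraries of mixed sex over both treatments, while within a treatment the makeup was not balanced between genotypes. With a covariate for it 7 genes were called, the 6 below included. Of the pancreatic acinar markers, summed levels were 8.11 to 44.6 CPM in F/F and 10.8 to 78.0 CPM in ΔHep libraries, and their part in the results was not tested.

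Over both treatments the deletion called 6 genes, 3 lower (0.022% of genes tested) and 3 higher (0.022%), in the additive fit of edgeR. The lower genes were *Atf4*, *Rps19bp1* and *Atf5*, and the higher ones *Cacna1i*, *Akr1c18* and *Aen*. In all 6 the libraries of the genotypes did not overlap, which over all genes held for 138 on the lower side (1.01%) and 168 on the higher side (1.23%). Without adjustment, 592 genes had a p under 0.05, fewer than the 682 expected by chance. By contrast of each treatment alone, 3 genes passed under vehicle (0.022%) and 3 under TCS (0.022%), namely *Atf4*, *Cacna1i* and *Rps19bp1* each time. *Akr1c18*, *Aen* and *Atf5* were called with both treatments joined but in neither alone. DESeq2 called 17 genes, all 6 of these included. Leaving out 1 ΔHep library lowered the count to 3 (vehicle replicate 2 or TCS replicate 2) or 4, and *Atf4*, *Cacna1i* and *Rps19bp1* stayed called without any 1 of the 8 libraries.

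*Atf5*, a bZIP factor closely related to ATF4 (chr7:44812256-44816658), fell by a small and even amount. *Atf5* stood at 595, 567, 544 and 522 CPM in the F/F libraries and at 472, 476, 399 and 393 CPM in the ΔHep libraries (log2 fold change −0.36, SE 0.044, adjusted p = 0.021). The ΔHep libraries lay below every F/F library, those under TCS lowest, and the log2 fold change was −0.29 under vehicle and −0.43 under TCS. The call held without vehicle replicate 2 or TCS replicate 1 of F/F and ended without any 1 of the other 6 libraries (adjusted p up to 0.184), with the log2 fold change between −0.39 and −0.34.

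*Aen* (chr7:78895854-78911209) encodes an exonuclease induced by p53 that takes part in apoptosis. *Aen* was at 9.43 and 7.88 CPM under vehicle and 10.025 and 10.4 CPM under TCS in *hUGT1/Atf4F/F* libraries, against 15.9 and 15.1 CPM and 15.4 and 18.2 CPM in *hUGT1/Atf4ΔHep* libraries (log2 fold change 0.78, SE 0.088, adjusted p = 0.0138). The ΔHep values rose 1.72-fold and lay well above the highest F/F library, at 10.4 CPM. The interaction was −0.11 (95% interval −0.53 to 0.31) on the log2 scale. Leaving out vehicle replicate 1, vehicle replicate 2 or TCS replicate 2 of ΔHep ended the call (adjusted p 0.104 to 0.139).

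*Akr1c18* (chr13:4132615-4150654) encodes a hydroxysteroid dehydrogenase that inactivates progesterone and belongs to a family of close copies in which reads may be shared. *Akr1c18* was at 0.456 and 0.263 CPM under vehicle and 0.664 and 0.286 CPM under TCS in *hUGT1/Atf4F/F* libraries, against 1.81 and 3.90 CPM and 6.06 and 6.45 CPM in *hUGT1/Atf4ΔHep* libraries (log2 fold change 3.36, SE 0.36, adjusted p = 0.0101). It was hardly counted in F/F liver, with 4 to 11 reads per library, and rose 10.3-fold in ΔHep liver, more in the TCS libraries than in the vehicle ones. Its effects were 2.93 under vehicle and 3.71 under TCS, and their difference, 0.79 (95% interval −0.96 to 2.54), was within error. It stayed called with the sex covariate. The call ended without vehicle replicate 2 of F/F and without vehicle replicate 2, TCS replicate 1 or TCS replicate 2 of ΔHep (adjusted p 0.0536 to 0.125).

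Both remaining called genes are neighbours of *Atf4* on chromosome 15. *Rps19bp1*, whose product binds a ribosomal protein, lies 3.07 kb beyond *Atf4* on the opposite strand (chr15:80260615-80264315). *Rps19bp1* stood at 11.5, 10.6, 11.8 and 10.4 CPM in the F/F libraries and at 3.05, 2.38, 2.25 and 1.46 CPM in the ΔHep libraries (log2 fold change −2.32, SE 0.18, adjusted p = 0.000668). *Cacna1i*, a voltage-gated calcium channel gene 29.7 kb away on the strand of *Atf4* (chr15:80287238-80398279), went from 1.83, 0.656, 0.966 and 0.343 CPM in the F/F libraries to 94.3, 90.0, 103 and 87.7 CPM in the ΔHep libraries (log2 fold change 6.57, SE 0.23, adjusted p = 4.31e-07). *Mief1*, 1.81 kb before *Atf4*, had a log2 fold change of −0.24 (SE 0.064) and was not called. Of the 16 genes tested within 500 kb, 13 were below 0, where 50.2% of all genes lie. An unadjusted p under 0.05 was found for 4 on the lower side and 1 on the higher (2.25% and 2.09% of all genes). Counting is not stated to have used strand, so reads of overlapping genes there, such as *Rpl3* and *Syngr1*, may be mixed. *Mief1*, *Atf4*, *Rps19bp1* and *Cacna1i* do not overlap one another by their annotated coordinates.

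**Figure D1:**
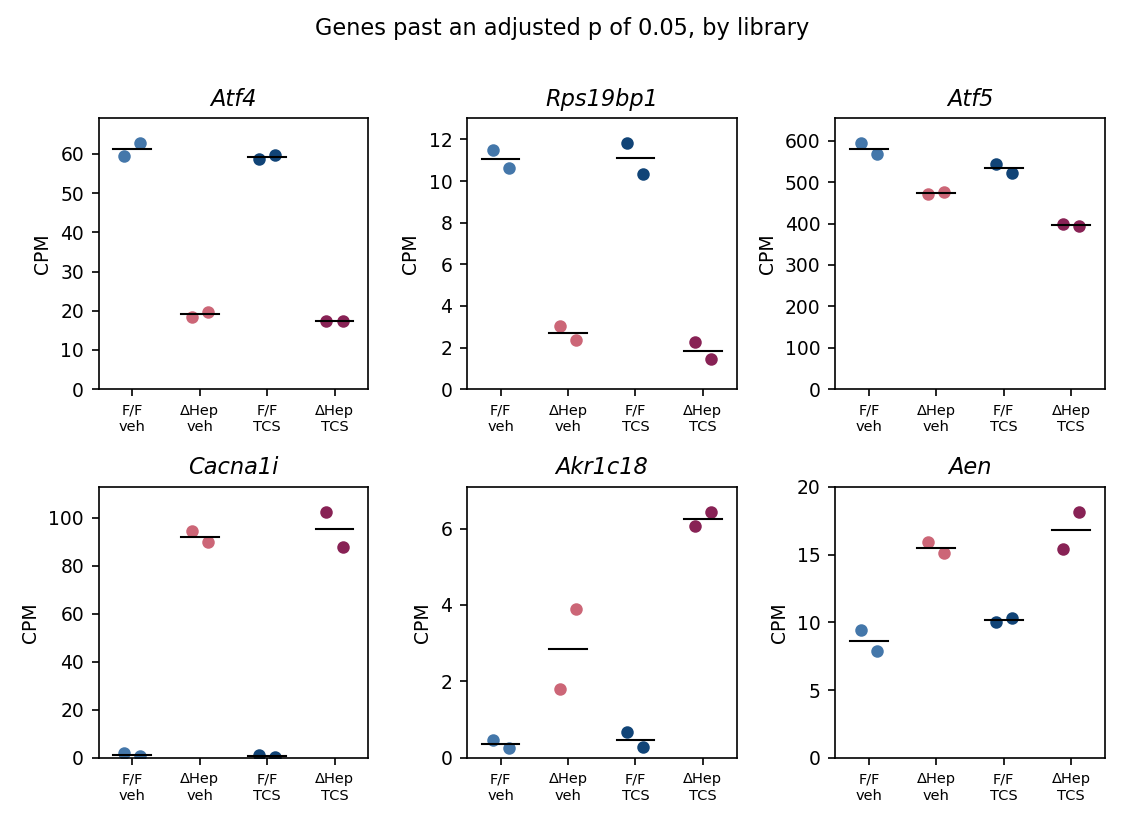
CPM (vertical axes, from 0) of the 6 called genes in each of the 8 libraries, by genotype and treatment (veh, vehicle). Points are libraries and bars the mean of 2. In each panel the 4 F/F and the 4 ΔHep libraries do not overlap.

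Genes of amino acid synthesis, the best known targets of ATF4, were mostly lower without it, but none was called. Of 14 tested members 10 were below 0, 8 of them under both treatments, with a median log2 fold change of −0.18 beside −0.00 over all genes. An unadjusted p under 0.05 was found for 5 on the lower side, where 2.25% of all genes lie, and for 1 on the higher side (2.09% of all genes). The libraries were separate within both treatments for 5 on the lower side (2.79% of all genes) and 1 on the higher (3.07%). *Asns*, the synthetase that makes asparagine from aspartate, had the largest difference. *Asns* stood at 4.61, 5.65, 5.80 and 3.26 CPM in the F/F libraries and at 2.31, 1.85, 1.64 and 1.42 CPM in the ΔHep libraries (log2 fold change −1.43, SE 0.22, adjusted p = 0.0874). Every ΔHep library lay under every F/F library, and the effect was −1.29 under vehicle and −1.58 under TCS. These were 19 to 96 reads a library. With no filter beyond 1 count it was called by edgeR (adjusted p = 0.0134), and DESeq2 called it as well (adjusted p = 0.000200).

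The serine pathway showed the same order. *Phgdh*, its first enzyme, stood at 1.88, 1.31, 1.69 and 1.72 CPM in the F/F libraries and at 1.06, 1.12, 0.26 and 0.882 CPM in the ΔHep libraries (log2 fold change −0.97, SE 0.35, adjusted p = 0.992), and TCS replicate 1 of ΔHep was lowest. *Psat1*, the next enzyme, stood at 6.13, 7.16, 8.82 and 8.01 CPM in the F/F libraries and at 4.92, 4.63, 5.19 and 5.29 CPM in the ΔHep libraries (log2 fold change −0.58, SE 0.11, adjusted p = 0.391). Its highest ΔHep library was still below the lowest F/F library. *Psph*, which completes the pathway, had overlapping libraries (log2 fold change −0.22, SE 0.20, adjusted p = 0.992). *Aldh18a1*, which opens proline synthesis, stood at 3.70, 4.66, 4.59 and 4.004 CPM in the F/F libraries and at 3.49, 3.31, 3.29 and 2.95 CPM in the ΔHep libraries (log2 fold change −0.38, SE 0.15, adjusted p = 0.992). *Mthfd1l* of the mitochondrial folate pathway had a log2 fold change of −0.28 (SE 0.11), and its partners *Mthfd2* and *Shmt2* had −0.15 (SE 0.28) and −0.04 (SE 0.042). *Got1* and *Cbs*, well expressed at 269 CPM and above, differed by −0.01 and 0.01.

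Among the 20 aminoacyl-tRNA synthetases, which charge tRNAs with amino acids, 14 were below 0, 13 of them under both treatments, and none was called. The median was −0.09, and it lay between −0.11 (without vehicle replicate 2 of F/F) and −0.05 (without vehicle replicate 1 of F/F) when 1 library was left out. On the lower side 7 had an unadjusted p under 0.05 and on the higher side 0, beside 2.25% and 2.09% of all genes. *Mars*, the methionine enzyme, came closest to a call. *Mars* was at 54.4 and 46.0 CPM under vehicle and 51.2 and 56.6 CPM under TCS in *hUGT1/Atf4F/F* libraries, against 39.2 and 33.6 CPM and 37.2 and 38.6 CPM in *hUGT1/Atf4ΔHep* libraries (log2 fold change −0.49, SE 0.071, adjusted p = 0.0709). *Cars*, the cysteine enzyme, stood at 33.6, 27.6, 30.4 and 25.9 CPM in the F/F libraries and at 24.0, 20.1, 20.6 and 18.2 CPM in the ΔHep libraries (log2 fold change −0.51, SE 0.094, adjusted p = 0.319). In both genes the genotypes did not overlap, and the highest ΔHep value came from vehicle replicate 1. The remaining 5 were *Nars* (−0.26), *Lars* (−0.18), *Iars* (−0.25), *Yars* (−0.33) and *Gars* (−0.12, each a log2 fold change). Their libraries were separate within both treatments for *Nars* and *Lars* only. *Vars*, *Wars*, *Kars* and *Qars* lay between 0.00 and 0.02. DESeq2 called both *Mars* and *Cars* (adjusted p = 4.02e-05 and 0.00407).

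Of the ISR factors and effectors, 23 of 24 listed genes were tested and *Atf5* alone was called. An unadjusted p under 0.05 was found for 8 on the lower side and for 1 on the higher (2.25% and 2.09% of all genes), and 18 were below 0, though only 10 under both treatments (median −0.07). That median rested on single libraries, at −0.01 without TCS replicate 1 of ΔHep and −0.16 without TCS replicate 2 of F/F. *Trib3*, a pseudokinase that inhibits AKT and ATF4, stood at 3.65, 2.95, 5.31 and 5.66 CPM in the F/F libraries and at 2.49, 1.79, 4.33 and 1.96 CPM in the ΔHep libraries (log2 fold change −0.76, SE 0.25, adjusted p = 0.992), and TCS replicate 1 of ΔHep lay above both F/F vehicle libraries. *Nupr1*, a small stress-induced chromatin protein, stood at 2.38, 1.12, 1.39 and 2.40 CPM in the F/F libraries and at 0.935, 0.463, 0.865 and 1.34 CPM in the ΔHep libraries (log2 fold change −1.01, SE 0.36, adjusted p = 0.992). *Fgf21*, a liver hormone of fasting, stood at 1.22, 0.919, 1.33 and 0.915 CPM in the F/F libraries and at 0.561, 0.794, 0.346 and 0.537 CPM in the ΔHep libraries (log2 fold change −0.95, SE 0.32, adjusted p = 0.992). Both were low genes, at 2.40 CPM or less in every library.

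**Figure D2:**
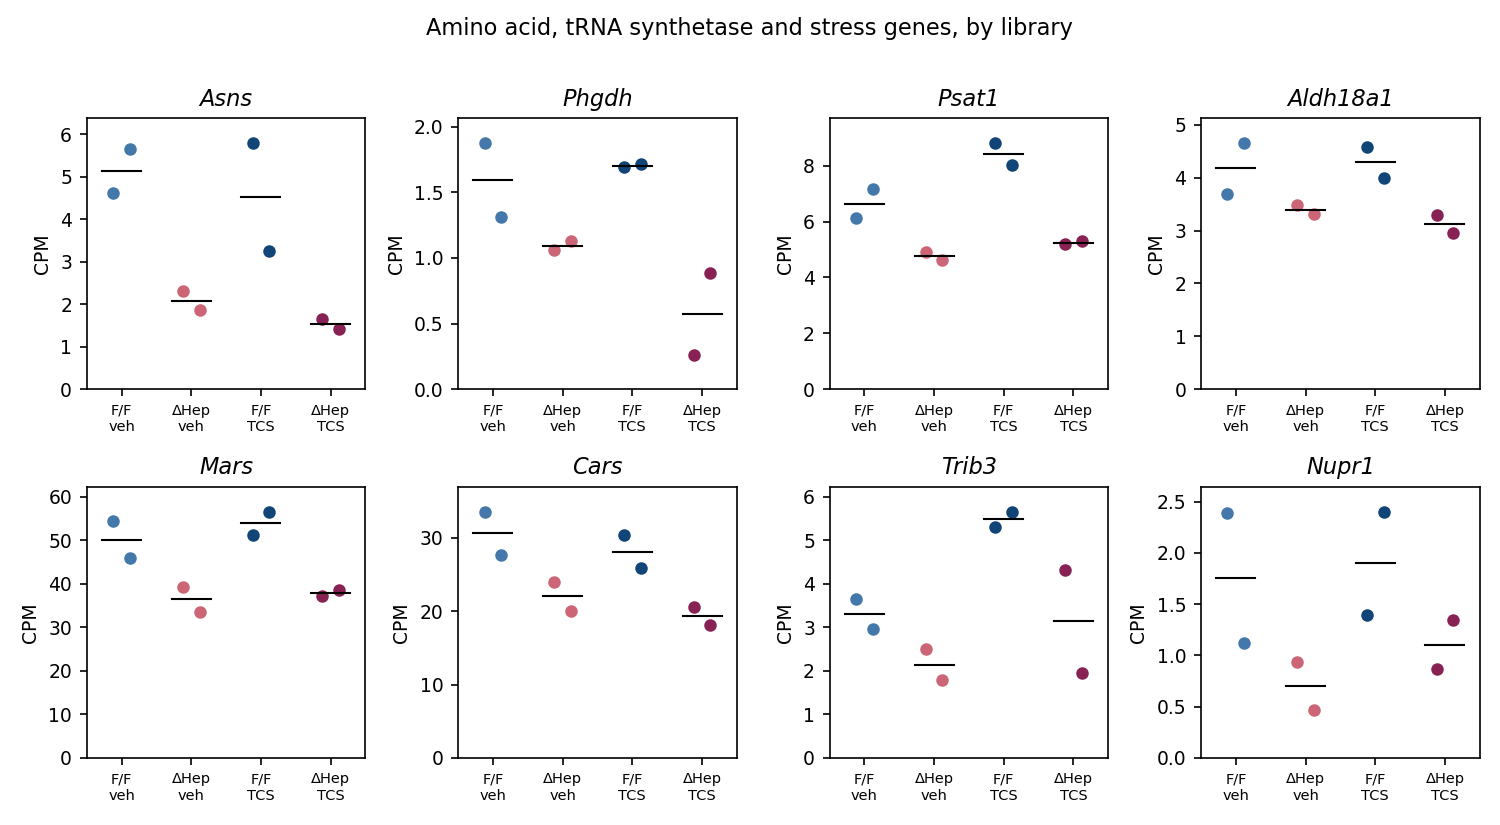
CPM (vertical axes, from 0) of 8 genes of the amino acid synthesis, tRNA synthetase and ISR lists in each library. Points are libraries and bars the mean of 2. *Asns*, *Phgdh*, *Psat1*, *Aldh18a1*, *Mars* and *Cars* show no overlap of the genotypes.

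Of the other effectors with an unadjusted p under 0.05, *Jdp2*, a bZIP repressor, had a log2 fold change of −0.45 (SE 0.20), *Klhl24* −0.21 (SE 0.074), *Eif4ebp1*, an inhibitor of translation initiation, −0.20 (SE 0.075) and *Ppp1r15b*, of the eIF2α phosphatase, −0.13 (SE 0.052). *Ddit3*, encoding CHOP, had an effect of 0.07 under vehicle and −0.58 under TCS (log2 fold change −0.25, SE 0.18, adjusted p = 0.992), and the interval of the difference between treatments (−1.34 to 0.03) included 0. *Chac1*, a glutathione-degrading enzyme, had 0.03 under vehicle and −0.93 under TCS. *Cebpg*, *Ppp1r15a* and *Sqstm1* lay between −0.01 and 0.00. *Gdf15*, a secreted stress hormone that is also a p53 target, was the member on the higher side with an unadjusted p under 0.05. *Gdf15* was at 2.69 and 2.76 CPM under vehicle and 5.31 and 6.12 CPM under TCS in *hUGT1/Atf4F/F* libraries, against 4.30 and 3.37 CPM and 7.70 and 9.63 CPM in *hUGT1/Atf4ΔHep* libraries (log2 fold change 0.56, SE 0.14, adjusted p = 0.859). Upstream of ATF4, 14 genes for the ISR kinases and the eIF2 complex had a median of 0.01. Of other stress lists, 26 ER chaperone and unfolded protein response genes had a median of 0.02 and 17 autophagy genes 0.00. In these lists only *Eif2s2* (−0.17) and *Herpud1* (−0.18) had an unadjusted p under 0.05, both lower (2.25% of all genes). Amino acid transporters, of which 20 were tested, had a median of −0.01, with 1 member on each side under an unadjusted p of 0.05 (2.25% of all genes lower, 2.09% higher). *Slc7a11*, the cystine transporter, had 2 reads in all and was not tested.

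Most p53 targets measured higher in *hUGT1/Atf4ΔHep* liver, and *Aen* was the one called. Of 18 tested members 16 were above 0, 12 of them under both treatments, where 49.8% of all genes are above 0, and the median log2 fold change was 0.40 (0.37 under vehicle and 0.43 under TCS) beside −0.00 over all genes. An unadjusted p under 0.05 was found for 9 on the higher side and 1 on the lower (2.09% and 2.25% of all genes). In 8 the libraries were separate on the higher side within both treatments (3.07% of all genes), and in 7 the 4 ΔHep libraries all lay above the 4 F/F libraries (1.23% of all genes). The summed level of the list was 360 to 383 CPM in F/F and 392 to 482 CPM in ΔHep libraries. Leaving out each library in turn kept the median between 0.34 and 0.46. The list was chosen with earlier results of these data known, so its counts are no independent support for a change in p53 targets.

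*Phlda3*, an inhibitor of AKT, had the largest difference of the list. *Phlda3* was at 1.42 and 0.985 CPM under vehicle and 1.99 and 1.83 CPM under TCS in *hUGT1/Atf4F/F* libraries, against 2.99 and 3.71 CPM and 3.29 and 5.14 CPM in *hUGT1/Atf4ΔHep* libraries (log2 fold change 1.30, SE 0.22, adjusted p = 0.163). *Tnfrsf10b*, a death receptor for TRAIL, stood at 1.22, 0.722, 0.906 and 1.32 CPM in the F/F libraries and at 2.31, 1.85, 1.73 and 2.76 CPM in the ΔHep libraries (log2 fold change 1.06, SE 0.27, adjusted p = 0.897). Both were low genes with a wide spread in ΔHep liver, and TCS replicate 2 was highest in each. *Bax*, which opens the mitochondrial membrane in apoptosis, stood at 12.6, 12.4, 11.1 and 11.7 CPM in the F/F libraries and at 16.8, 16.5, 17.2 and 15.7 CPM in the ΔHep libraries (log2 fold change 0.47, SE 0.069, adjusted p = 0.0709). *Mdm2*, the ligase that degrades p53, stood at 27.2, 25.01, 24.6 and 26.2 CPM in the F/F libraries and at 34.3, 33.4, 30.2 and 29.7 CPM in the ΔHep libraries (log2 fold change 0.31, SE 0.060, adjusted p = 0.395). Neither gene showed any overlap, and the ΔHep values were tight. *Ccng1*, encoding cyclin G1, stood at 30.4, 25.7, 24.2 and 32.0 CPM in the F/F libraries and at 36.6, 34.5, 36.7 and 47.8 CPM in the ΔHep libraries (log2 fold change 0.47, SE 0.12, adjusted p = 0.859).

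*Zmat3*, an RNA-binding growth suppressor, stood at 10.95, 9.45, 9.60 and 8.29 CPM in the F/F libraries and at 13.0, 13.9, 11.7 and 15.8 CPM in the ΔHep libraries (log2 fold change 0.52, SE 0.12, adjusted p = 0.684). *Cdkn1a*, encoding the cell cycle inhibitor p21, stood at 29.7, 17.1, 16.2 and 17.3 CPM in the F/F libraries and at 35.1, 33.2, 20.6 and 31.5 CPM in the ΔHep libraries (log2 fold change 0.59, SE 0.17, adjusted p = 0.992). Here vehicle replicate 1 of F/F was nearly as high as the ΔHep vehicle pair and above TCS replicate 1 of ΔHep. *Eda2r*, a receptor of the TNF family, differed by 0.99 (SE 0.39) at 0.343 to 1.52 CPM, with overlapping libraries. *Fas*, the death receptor, was the member on the lower side with an unadjusted p under 0.05 (log2 fold change −0.15, SE 0.065, adjusted p = 0.992). *Sesn1*, *Perp* and *Plk2* had log2 fold changes of −0.02 to 0.02. For p53 itself, *Trp53* stood at 30.1, 34.3, 37.7 and 29.9 CPM in the F/F libraries and at 31.9, 31.4, 34.6 and 33.9 CPM in the ΔHep libraries (log2 fold change −0.00, SE 0.078, adjusted p = 1). *Rps27l*, a p53 target outside the list and named after its value was seen, differed by 0.27 (SE 0.054). Of 25 proliferation genes 0 were called and the median was −0.05. DESeq2 called *Phlda3* and *Ccng1* as well (adjusted p = 0.00685 and 0.0386), and *Bax* and *Phlda3* passed in edgeR with no filter beyond 1 count (adjusted p = 0.0448 and 0.0430).

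**Figure D3:**
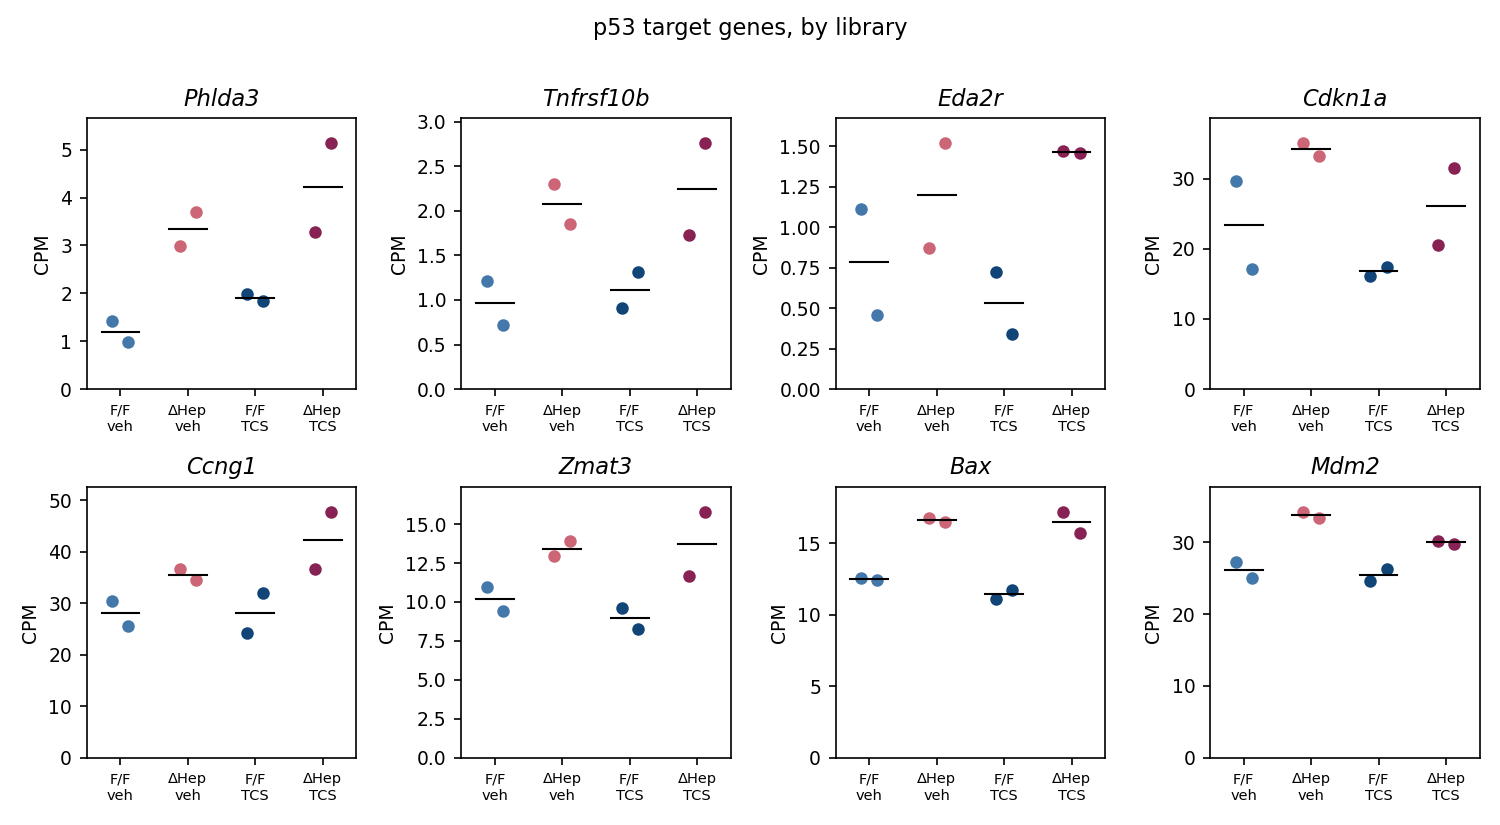
CPM (vertical axes, from 0) of 8 p53 targets in each library. Points are libraries and bars the mean of 2. The ΔHep mean is above the F/F mean under both treatments in each panel, while libraries overlap for *Eda2r* and *Cdkn1a*.

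Beyond the ATF4 and p53 lists, the genes next in order by p with separate libraries were mostly liver genes. On the higher side these were *Mbl2*, encoding mannose-binding lectin, at 365, 321, 281 and 327 CPM in the F/F libraries and 448, 430.1, 434 and 431 CPM in the ΔHep libraries (log2 fold change 0.43, SE 0.063, adjusted p = 0.0709), the reductase *Akr1e1* (log2 fold change 0.37, SE 0.054, adjusted p = 0.0709), the epoxide hydrolase and NRF2 target *Ephx1* (log2 fold change 0.41, SE 0.078, adjusted p = 0.391) and *Aldh2*, which oxidizes acetaldehyde (log2 fold change 0.23, SE 0.044, adjusted p = 0.391). On the lower side stood *Cyp39a1*, an oxysterol hydroxylase (log2 fold change −0.61, SE 0.14, adjusted p = 0.757), *Rpl22l1*, a paralog of a ribosomal protein gene (log2 fold change −0.30, SE 0.067, adjusted p = 0.687) and *Ltbp4*, of the matrix that binds TGFβ (log2 fold change −0.19, SE 0.043, adjusted p = 0.684). For *Mbl2* the lowest ΔHep library, at 430.1 CPM, was above the highest F/F library.

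The study also followed nuclear receptor and oxidative stress genes, and none of these was called in the additive fit. Of 36 PPARα targets, which drive fatty acid oxidation, 31 were below 0 and 27 under both treatments, with a median of −0.07 and 0 called. The median was −0.03 without TCS replicate 2 of F/F and −0.11 without TCS replicate 1 of F/F. An unadjusted p under 0.05 was found for 3 on the lower side (2.25% of all genes), namely *Cyp4a10*, *Cyp4a14* and *Fgf21*, and for 0 on the higher. *Cyp4a10*, an ω-hydroxylase of fatty acids, stood at 459, 339, 1478 and 2156 CPM in the F/F libraries and at 308, 287, 1304 and 1534 CPM in the ΔHep libraries, with a log2 fold change of −0.39 (SE 0.12). Its libraries overlapped under TCS. *Cyp4a14* had −0.31 (SE 0.11) and *Ehhadh* −0.13 (SE 0.083), the latter between −0.19 and −0.06 when a ΔHep TCS library was left out. NRF2 targets, of which 21 of 30 were above 0 but only 13 under both treatments, had a median of 0.05 (0.03 without vehicle replicate 1 of F/F). An unadjusted p under 0.05 was found for 4 members on the higher side and 1 on the lower (2.09% and 2.25% of all genes). The largest of the former was *Ephx1*, given above at 0.41. *Abcc4* had 0.16 (SE 0.069) and *Gstm3* 0.17 (SE 0.076), and *Abcc3* on the lower side −0.20 (SE 0.073). The effect on *Gstm3* was not alike in both treatments, at 0.01 under vehicle and 0.31 under TCS. The difference between these was 0.30 (95% interval 0.02 to 0.59, without adjustment for the number of genes). Also on the higher side, *Gstm1*, a glutathione transferase, differed by 0.12 (SE 0.051). *Nqo1*, the quinone reductase, had an effect of −0.00 under vehicle and 0.40 under TCS, and the difference between them was 0.40 (95% interval −0.03 to 0.84). The 25 CAR and PXR targets had a median of −0.05, and *Cyp2b10* a log2 fold change of −0.20 (SE 0.13), which was −0.05 without TCS replicate 2 of F/F and −0.32 without TCS replicate 1 of F/F.

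Of 12 tested genes of the fetal and neonatal liver 0 were called, 7 were below 0 and the median was −0.04, with 3 on the higher side and 1 on the lower at an unadjusted p under 0.05 (2.09% and 2.25% of all genes). The latter was *Plagl1* (log2 fold change −0.23, SE 0.096), and the former were *Cyp3a16* (log2 fold change 0.26, SE 0.092) and a pair with larger differences. *Cyp3a44* (log2 fold change 0.51, SE 0.13, adjusted p = 0.897) and *Cyp3a41a* (log2 fold change 1.14, SE 0.48, adjusted p = 0.992) are cytochromes close in sequence and expressed more in female liver, a trait not tested at this age. *Cyp3a44* was at 140 and 142 CPM in the F/F vehicle libraries, low in *Xist*, and at 77.7 and 125 CPM in the F/F TCS libraries, high in it. In ΔHep libraries it was higher with high *Xist*, at 213 against 180 CPM under vehicle and 164 against 129 CPM under TCS. *Cyp3a41a* was highest in TCS replicate 2 of ΔHep, at 67.5 CPM. Of 19 acute phase genes 0 were called and the median was 0.04. On the higher side 3 had an unadjusted p under 0.05 and on the lower side 0 (2.09% and 2.25% of all genes). These were *Saa1*, *Saa2* and *Orm2*, at 1.04, 1.01 and 1.19 with overlapping libraries. Summed neutrophil markers were 17.3 to 32.9 CPM in F/F and 12.4 to 33.9 CPM in ΔHep libraries. Their part in these values was not tested.

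**Figure D4:**
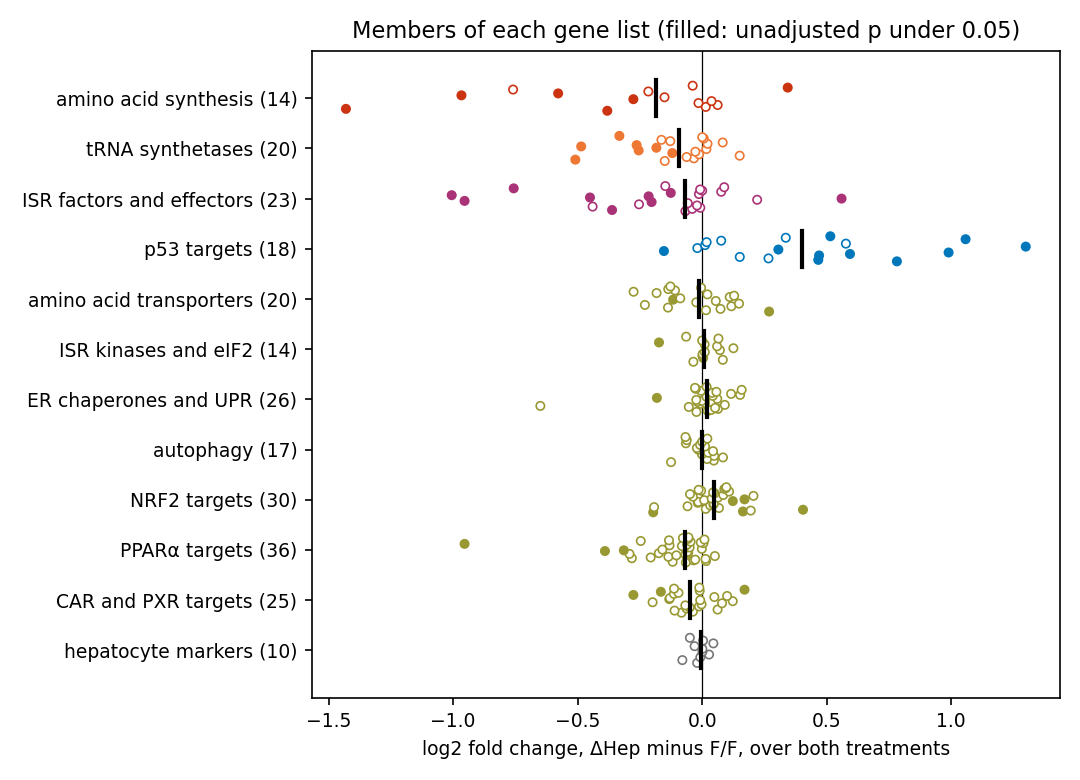
Log2 fold change over both treatments (horizontal axis) of each tested member of 12 gene lists, with the number of members in brackets. Points are genes, filled where the unadjusted p was under 0.05, and bars are medians. The p53 targets have the median farthest from 0, at 0.40, and the hepatocyte markers lie at −0.00.

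The effects of genotype under vehicle and under TCS were only weakly correlated over the transcriptome. The vehicle and the TCS contrast share no library, and over all 13633 genes their log2 fold changes had a Pearson correlation of 0.114, with 54.1% of genes of 1 sign in both, as a description over genes that are not independent. Of 391 genes with an unadjusted p under 0.05 under vehicle, 242 (61.9%) had the same sign under TCS, and of 431 under TCS, 284 (65.9%) had it under vehicle. The interaction test called 0 genes in edgeR, with 282 at an unadjusted p under 0.05 and a lowest adjusted p of 1.00. For *Asns* the difference between treatments was −0.28 (95% interval −1.32 to 0.75), for *Phlda3* −0.29 (95% interval −1.32 to 0.73), and for *Mars* −0.04 (95% interval −0.39 to 0.30). These intervals do not show that the effects are alike, since those of the low genes span a wide range.

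**Figure D5:**
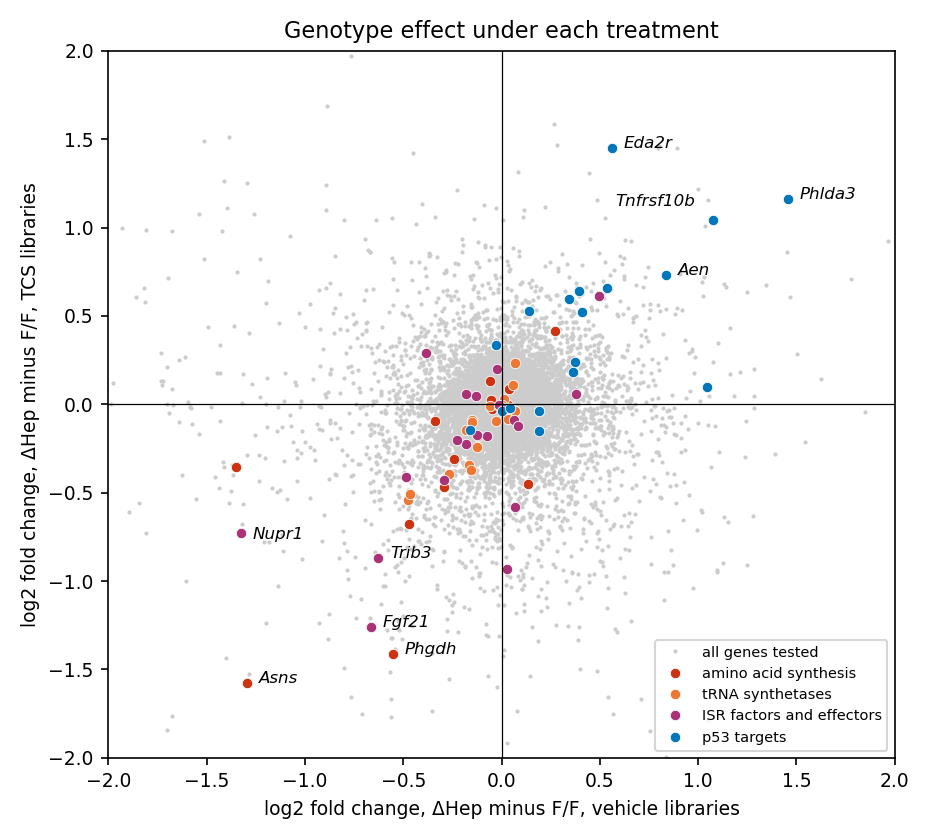
Log2 fold change of ΔHep minus F/F in the TCS libraries (vertical axis) against that in the vehicle libraries (horizontal axis) for all genes within 2 of 0 on both axes, with members of 4 lists in colour. *Asns*, *Nupr1* and *Trib3* lie at the lower left and *Phlda3* and *Aen* at the upper right, and over all genes the Pearson correlation was 0.114.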

How the data were processed

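With a stranded mRNA kit the authors made libraries from liver RNA. The submitters' processing notes list the tools STAR 2.7.9a and bcl2fastq 2.20 and the build mm10. Which counter, strand setting and annotation were used was not given in the sources used here. Raw counts per gene symbol were used as deposited by the authors. Their scaled values and their tables of fold changes and p values were not used. Libraries were assigned by their labels, and replicate pairs were well beyond sampling noise (chi-square of 7.74 to 17.0 per gene), so each counted as 1 sample. Whether pools came from separate litters is not labelled, so p values measure the spread between these libraries.

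Genes passed filterByExpr of edgeR 4.0.16 (count minimum 10, total minimum 15) in R 4.3.3, were normalized by TMM, and were fitted by quasi-likelihood with treatment and genotype as additive terms and 5 residual degrees of freedom. Contrasts under each treatment and the interaction came from a fit with 4 group means. P values were adjusted over all 13633 genes by the method of Benjamini and Hochberg, with a threshold of 0.05. Standard errors (SE) were obtained from the log2 fold change and the F statistic, as their quotient after taking the root of F. Alternatives were RLE factors, other filters, DESeq2 1.42.0, replicate blocks, a sex covariate, the average of both contrasts, each treatment alone and each library left out. The block of treatment by replicate number was chosen after seeing the data. Coordinates are from GENCODE M21, and figures were drawn in Python with matplotlib.

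Named genes were *Atf4*, the genes the study names for ATF4 and for TCS, called genes, the genes of smallest p with separate libraries where under 10 were called in a direction, and up to 4 of smallest p in each list. Further members of the p53, amino acid, synthetase and ISR lists were added after their values were seen. Members, lists and markers were chosen with earlier results of these data known, so the shares within lists are descriptive and no independent test. The values of 1 list member are not reported here.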

Additional observations from a re-analysis of the deposited data

Results flagged for a closer look

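In 4 of the 104 sets of 4 libraries tested for the named genes, 1 library lay far from the other 3 of its genotype by Dixon's test, and chance flags about 1 in 20 such sets. *Cdkn1a* was at 29.7 CPM in vehicle replicate 1 of *hUGT1/Atf4F/F*, against 16.2 to 17.3 CPM in the others. *Ccng1* was at 47.8 CPM in TCS replicate 2 of *hUGT1/Atf4ΔHep*, against 34.5 to 36.7 CPM. *Eda2r* was at 0.872 CPM in vehicle replicate 1 of *hUGT1/Atf4ΔHep*, against 1.46 to 1.52 CPM. *Eif4ebp1* was at 19.6 CPM in TCS replicate 1 of *hUGT1/Atf4ΔHep*, against 16.7 to 16.8 CPM. Of these, 3 are p53 targets and lie in 3 different libraries, but the share of p53 targets among the genes tested was not compared. Each set joined the vehicle and TCS libraries of a genotype, so an effect of treatment can enter a flag.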

How the results depend on the processing

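The count of called genes was 6 (3 lower, 3 higher), and the 6 were among the calls of each alternative fitted to all 8 libraries at the same threshold. It was 12 with no filter beyond 1 count (5 lower, 7 higher), 17 by DESeq2 (7 lower, 10 higher), 3 at a threshold of 0.01 (1 higher), 2 in a fit of the vehicle libraries alone and 2 in one of the TCS libraries alone (1 lower and 1 higher each). It ranged from 3 to 31 when 1 library was left out, with 2 to 27 lower and 1 to 4 higher. Replicate numbers were taken as a block in a further fit, which called 7 genes, with *Cars* added. Same-numbered samples of the 2 genotypes deviated together within a treatment (r = 0.337 under vehicle and 0.373 under TCS). Across treatments the correlations were negative (r = −0.43 to −0.11). The main fit did not use the numbers as pairs, and what a shared number stands for is not labelled and was not tested. With treatment by replicate number as 4 blocks, a replicate block chosen after seeing the data, 31 genes were called (20 lower, 11 higher), with *Asns*, *Mars*, *Cars*, *Bax*, *Ccng1*, *Cyp4a10* and *Cyp4a14* (adjusted p = 0.0468 and 0.00241 for the last pair) gained. Of 936 values, for 52 genes under 18 alternatives, 884 kept their direction and side of the threshold, 30 passed it newly, 21 no longer passed it, and 1 reversed: *Nqo1*, at −0.0040 in the vehicle libraries alone. The median of the amino acid synthesis list went from −0.18 to −0.06 in the fit of the vehicle libraries alone, which filtered genes anew. In the fit of 4 group means it was −0.15 under vehicle over the 14 tested members, so the −0.06 does not show a weaker effect under vehicle. Without TCS replicate 2 of *hUGT1/Atf4F/F* it was −0.29. The cause of these changes was not tested. With 2 libraries a group, genes at a few CPM, *Asns* and *Phlda3* included, have wide intervals.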
